A study of Arabidopsis thaliana with 14 samples.

Results

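Genes for leucine-rich repeat receptor kinases were examined for trimethylation of histone H3 at lysine 36 (H3K36me3) before and after a rise in ambient temperature in Arabidopsis thaliana. The 178 members were taken from 27444 nuclear protein-coding genes by their product name in the RefSeq annotation of the TAIR10.1 genome, which had to hold "leucine-rich repeat" or "leucine-rich receptor" together with "kinase". The rule left out 9 well-studied receptor genes, among them CLV1, ER and BAM2, which serve here as a group for comparison. Receptors whose product name does not use these words, such as TMK1 or SERK2, fall outside the rule as well. Of the 178 members, 125 carried the product name leucine-rich repeat protein kinase family protein, and 29 had a gene symbol other than their locus number.

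The samples came from wild-type Col-0 plants that had grown at 16 °C for 5 weeks in short days of 8 h light and 16 h dark. Leaves were taken off to enrich for the shoot apical meristem, in tissue labelled as also holding early leaves, and the material came from plants kept at 16 °C and from plants 1 day after transfer to 25 °C, with no mutant or chemical treatment in either group. There were 4 H3K36me3 chromatin immunoprecipitation (ChIP) samples at each temperature, and 3 samples at each temperature with an antibody to H3, and the H3K36me3 replicates of a temperature had been pooled into 1 list of regions. No value per replicate could therefore be had, no test between 16 °C and 25 °C was possible, and every difference below is a difference between 2 pooled lists. For 1 of the H3K36me3 samples at 25 °C (replicate A) the title names H3K36me3 while the antibody field names H3, and its part in the pooled list could not be separated.

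H3K36me3 is laid down on nucleosomes behind the transcribing RNA polymerase, in plants mainly by the methyltransferase SDG8, and lies in the bodies of transcribed genes. A leucine-rich repeat receptor kinase has an outer domain built of short leucine-rich repeats, which binds a peptide, a steroid or a microbial molecule, then a single span through the membrane, and a kinase domain inside the cell. Many of these receptors act together with a shorter co-receptor of the same family, and they serve in immunity, in cell division at meristems and in the vasculature, and in pollen tube growth. In the gene, the outer domain is encoded before the membrane span and the kinase domain after it.

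The 16 °C list held 50290 regions, 50167 of them on the 5 nuclear chromosomes, and the 25 °C list held 52588, of which 52432 were nuclear. The regions covered 11977030 bp at 16 °C and 16000080 bp at 25 °C, so cover was larger genome-wide in the 25 °C list, and the sequencing depth behind the lists is unknown. Each region has a height, the top of the normalised signal, with a lowest value of 179 in both lists. Of 7 shoot marker genes, 4 had a region at 16 °C (57.1%, 25.0 to 84.2%) and 3 at 25 °C. AS1, which acts in leaf primordia, had a cover of 23.1% (16 °C) and 12.0% (25 °C) of the gene body, and RCA, the activase of Rubisco, had 6.11% and 21.9%. The meristem genes STM and WUS had 1 region each, STM at 16 °C and WUS at 25 °C. Of 7 root and seed marker genes, 2 had a region at 16 °C (OLE1 and COBL9, 8.22 to 64.1%) and 0 at 25 °C (interval up to 35.4%). The intervals of both kinds of marker overlapped, and the lists alone did not settle the tissue.

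Marked genes were those whose body, from annotated start to end, shared at least 1 bp with a region. At 16 °C 118 of the 178 members were marked (66.3%, Wilson 95% interval 59.1 to 72.8%), beside 56% of all protein-coding genes. At 25 °C 126 members were marked (70.8%, 63.7 to 77.0%), beside 59.5% of all genes. All intervals given here cover counting error only. In total 144 members had a region in either list (all genes: 65.3%), 100 had one in both, and 34 had none. Members were marked at 16 °C only in 18 cases (all genes: 5.77%) and at 25 °C only in 26 cases (all genes: 9.33%).

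The members were marked somewhat more often than genes at large, while a smaller part of each gene lay inside regions. The covered percent, which is the share of the gene body inside regions, had a median of 2.72% at 16 °C and 4.498% at 25 °C over the members, against 4.21% and 7.36% over all genes. Only 27 members at 16 °C and 45 at 25 °C had over 25% of their body covered, where the shares over all genes were 26.9% and 36.9%. In marked members the widest region measured 155 bp (16 °C) and 285 bp (25 °C) in the median, against 360 and 520 bp over all marked genes. For 48 members, SOBIR1, PXL1, PXL2, FEI1, RUL1, FLS2, AT2G01210 and AT5G58150 among them, the body overlaps another annotated gene. A region in the overlap cannot be given to either. The members are long genes, with a median length of 3829 bp (range 1649 to 7626 bp) against 2078 bp. From 3000 bp up they were not marked more often than other genes of like length, as given below. Between 2000 and 3000 bp they were marked less often than other genes at 16 °C and more often at 25 °C.

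Between temperatures, cover was larger at 25 °C in 104 members (all genes: 47.4%) and smaller in 40 (all genes: 17.2%). Among the members whose cover differed, 72.2% (64.4 to 78.9%) had the larger value at 25 °C, and over all genes this share was 73.4%. The share was thus close to that of the genome. The scatter plot of cover shows the spread of the members around the line of equal cover.

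**Figure D1:**
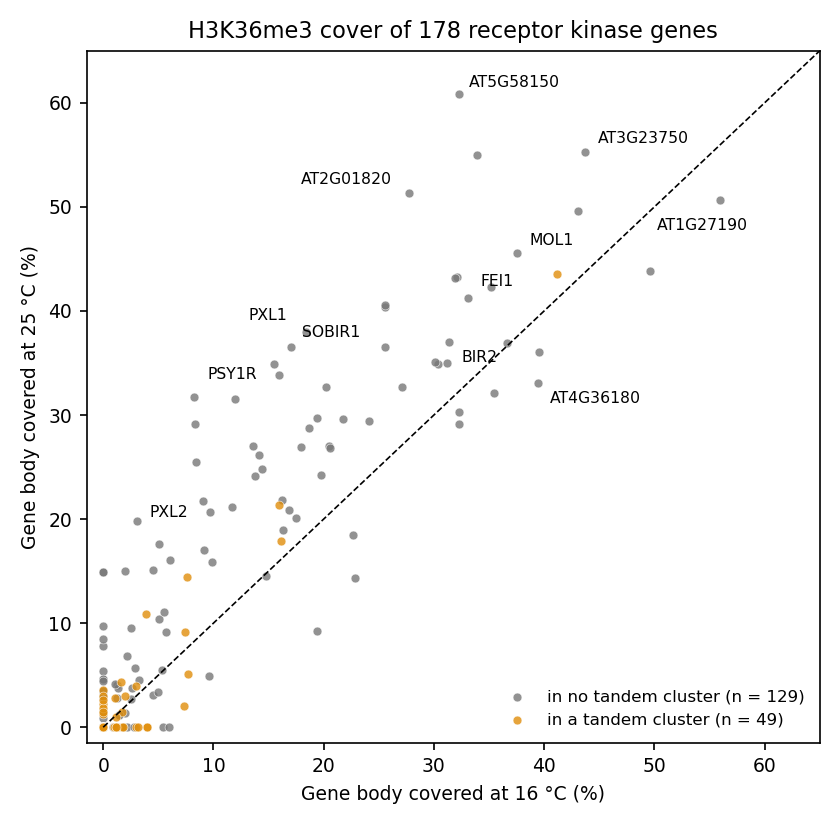
Percent of the gene body inside H3K36me3 regions at 16 °C (x axis) and 25 °C (y axis) for the 178 receptor kinase genes, 1 point per gene, with the dashed line marking equal cover. Orange points are the 49 members in a tandem cluster (set by distance alone), of which 1 lies above 25% on either axis. Of the 178 points, 104 lie above the line.

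The receptors and partners known from immunity and stress were 7 members with an annotated name, and 6 of them were marked in each list (all genes: 56% and 59.5%). SOBIR1, a kinase that partners receptor-like proteins in immunity, was covered over 17.1% of its body (16 °C) and 36.5% (25 °C). Its 16 °C list held regions of 210 and 150 bp inside the coding sequence of the outer domain, and at 25 °C a single region of 690 bp spanned both of them. A 25 °C region that overlapped 2 or more 16 °C regions was seen in 34 members, with BIR2, PXL1, PSY1R, FEI1 and FEI2 among them, and the reverse in 23. No such count was made over all genes, where 6.43% of regions were over 1000 bp wide at 25 °C and 2.34% at 16 °C. BIR2, a kinase relative that holds the co-receptor BAK1 away from its partners, was covered over 31.4% and 37.1%. RLK7, the receptor of a stress-induced peptide, had 11.7% at 16 °C and 21.2% at 25 °C, with 4 and 5 regions.

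LIK1, a partner of the chitin receptor CERK1, was covered over 9.83% and 15.9%. GHR1, a guard cell receptor-like kinase in stomatal closure, had 2.53% and 9.57%. These 5 genes were marked in both lists and all had the larger cover at 25 °C, the direction of 73.4% of all genes whose cover differed. IOS1, which acts in defence against oomycetes and bacteria, was unmarked at 16 °C and had 1 region of 120 bp at 25 °C (3.01%). FLS2, the receptor for bacterial flagellin, went the other way, with 1 region of 40 bp at 16 °C (0.92%) and none at 25 °C. A region of 40 bp is narrower than the 150 bp to which reads were extended, and the FLS2 and IOS1 values each rest on 1 region.

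The first SOBIR1 region at 16 °C is shown because it is a compact piece of marked receptor sequence. It lies at chr2:13555180-13555389 on the plus strand, 310 to 519 bp from the gene start, and all 210 bases are coding. Capitals mark the codons for leucine, 11 of its 69 whole codons, which recur along the repeats that give the family its name. Over the whole coding sequence of the members 13.02% of codons were for leucine, against 9.55% in all genes. This and the sequences below are read from the RefSeq genome of TAIR10.1.
SOBIR1 at 16 °C: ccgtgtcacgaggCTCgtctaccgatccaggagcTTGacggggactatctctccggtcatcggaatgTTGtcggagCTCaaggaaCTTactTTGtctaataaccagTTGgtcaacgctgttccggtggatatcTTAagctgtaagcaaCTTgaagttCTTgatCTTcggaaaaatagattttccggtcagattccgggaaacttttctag

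Among the receptors for peptides and development, 18 members had an annotated name, of which 11 were marked at 16 °C and 14 at 25 °C (all genes: 56% and 59.5%). Cover was larger at 25 °C in 13 of them, smaller in 1, and 4 had no region in either list. Of those that differed, 92.9% (68.5 to 98.7%) had the larger value at 25 °C, an interval that holds the 73.4% of all genes. PXY is the receptor for the peptide TDIF, which keeps vascular stem cells dividing. PXL1, its close relative, was covered over 18.4% at 16 °C and 37.9% at 25 °C, and its widest region measured 590 and 1080 bp. PXL2, the other relative, had 3.07% and 19.8%, with 1 region of 110 bp at 16 °C and 3 regions at 25 °C that did not touch the 16 °C region. PXY itself was without a region at 16 °C and had 3 at 25 °C (8.44%), none wider than 120 bp.

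The PXY regions are shown because they are all that this receptor had, and each falls on coding sequence. They lie on the minus strand at chr5:24727150-24727249, chr5:24726920-24727039 and chr5:24726680-24726789, from 995 to 1564 bp after the gene start. Leucine codons, again in capitals, made up 9 of 33, 9 of 39 and 4 of 36 whole codons.
PXY at 25 °C, nearest the start: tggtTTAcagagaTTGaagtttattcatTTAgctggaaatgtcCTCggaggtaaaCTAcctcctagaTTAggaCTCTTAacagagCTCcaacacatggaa
PXY at 25 °C, middle: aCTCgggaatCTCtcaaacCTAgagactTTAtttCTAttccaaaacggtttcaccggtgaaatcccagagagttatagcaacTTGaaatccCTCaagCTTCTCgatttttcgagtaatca
PXY at 25 °C, farthest: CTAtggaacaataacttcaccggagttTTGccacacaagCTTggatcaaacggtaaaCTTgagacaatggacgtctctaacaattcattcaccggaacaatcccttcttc

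PSY1R, the receptor of the growth peptide PSY1, was covered over 15.9% at 16 °C and 33.9% at 25 °C, and regions of 300 and 320 bp at 16 °C lay where 1 region of 1000 bp lay at 25 °C. MOL1, which holds back cell division in the cambium, had the highest mean cover of the 31 receptors grouped by role here, 37.5% and 45.5%. The related pair FEI1 and FEI2, which act in cell wall synthesis, had 33.1% and 41.2% for FEI1 and 30.1% and 35.1% for FEI2. RUL1, which promotes cambium growth, was unmarked at 16 °C and had 2 regions at 25 °C (7.79%). The wider of them, 150 bp at chr5:1528560-1528709 on the plus strand, is given here with its 8 leucine codons in capitals, as most of what was marked in RUL1. The other region, 40 bp at chr5:1529390-1529429, held no leucine codon among 11 whole codons.
RUL1 at 25 °C: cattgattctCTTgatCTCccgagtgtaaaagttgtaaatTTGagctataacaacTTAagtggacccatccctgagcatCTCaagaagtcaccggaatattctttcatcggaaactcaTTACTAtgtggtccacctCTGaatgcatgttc

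SKM2, a relative of SKM1, was covered over 17.5% at 16 °C and 20.1% at 25 °C, with 4 and 5 regions. The other receptors of this list had little cover. HAE, the receptor that starts the shedding of floral organs, had 2.12% at 16 °C and 6.87% at 25 °C, and none of its 2 regions in either list met a region of the other. CEPR1 and CEPR2, receptors of peptides that signal low nitrogen from the root, had 1.11% and 4.18% for CEPR1 and 3.25% and 4.55% for CEPR2. EMS1, which acts in the anther, was unmarked at 16 °C and had 1 region at 25 °C that reached over its start (2.98%). BAM3, a receptor in root phloem, had 1.98% and 1.41% and was the only member of the list with a smaller value at 25 °C. No region was listed on SKM1 (pollen), IKU2 (endosperm), GSO1 or GSO2 (root endodermis and embryo) at either temperature.

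The pollen receptor kinases PRK1 to PRK6 guide and drive pollen tube growth, and none of the 6 had a region at 16 °C (0%, interval up to 39.0%). At 25 °C PRK1 was covered over 2.86%, PRK4 over 3.46% and PRK5 over 5.40%, by 1 region each of 70, 160 and 150 bp, while PRK2, PRK3 and PRK6 had none. The PRK4 region lay only partly inside the gene body. With FLS2, IOS1, PXY, RUL1 and EMS1, the 3 PRK genes show what a change between marked and not marked looked like among these receptors: 1 to 3 narrow regions in 1 list. The PRK1 region, at chr5:13597860-13597929 on the plus strand, is shown because it differs from the pieces above, with no leucine codon and so no capitals among its 23 whole codons. The map of regions sets all 31 genes side by side.
PRK1 at 25 °C: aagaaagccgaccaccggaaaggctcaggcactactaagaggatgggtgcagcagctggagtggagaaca

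**Figure D2:**
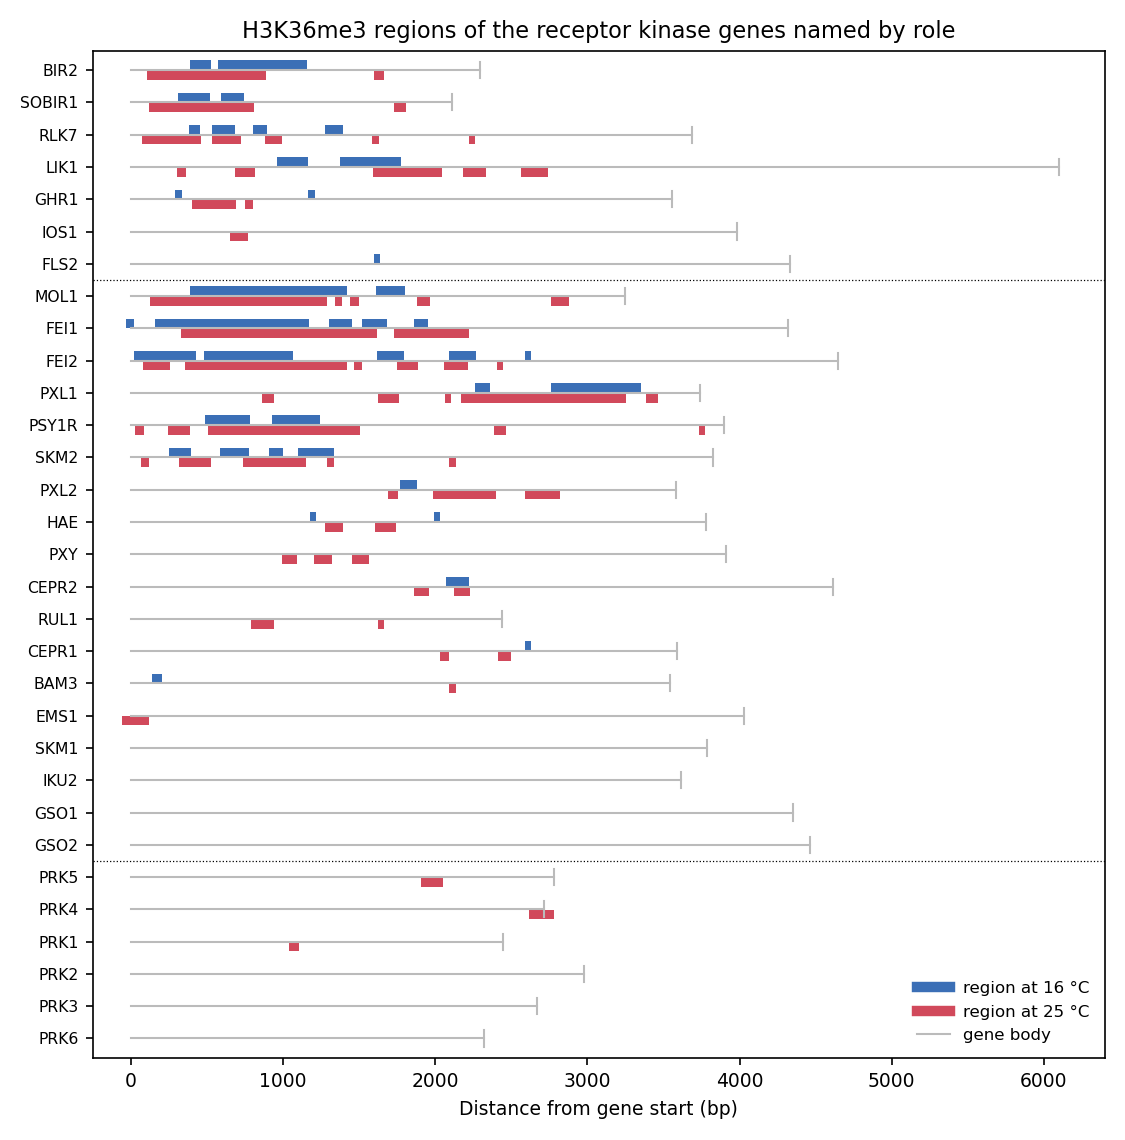
H3K36me3 regions at 16 °C (blue, above the line) and 25 °C (red, below the line) along the 31 members named by role, with distance from the gene start in bp on the x axis and the gene body as a grey line. Dotted lines divide the 7 immune and stress genes, the 18 peptide and developmental receptors and the 6 pollen receptors, and the blue SOBIR1 and PSY1R regions face longer red ones.

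A further 17 members had been listed by role but carry no name in the annotation used here, and are given by locus number only. The 16 °C list held a region on 13 of these and the 25 °C list on 14 (all genes: 56% and 59.5%). Cover was larger at 25 °C in 9 and smaller in 6 (all genes: 47.4% and 17.2%). AT2G01210 had 33.9% and 55.0% at 16 °C and 25 °C, AT4G31250 had 17.9% and 26.9%, AT4G08850 had 14.8% and 14.5%, and AT1G34110 had 6.07% and 16.1%. Cover between 1.19% and 9.58% was listed at both temperatures on AT1G74360, AT4G26540, AT5G45780, AT5G48940 and AT5G49760. AT1G72460 and AT2G23950 had a region at 25 °C only, AT5G45840 at 16 °C only, and AT3G24240 none. The rest were AT1G27190, AT3G02880, AT1G51850 and AT1G56145, whose values follow. Also in the role lists, but not among these 17, were MRH1 (2.60% and 3.79%) and SARK (5.71% and 9.13%).

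The 5 members with the highest mean cover were not among the 31 receptors above. AT1G27190 was covered over 55.9% at 16 °C and 50.6% at 25 °C. AT3G23750, annotated as BARK1, a kinase that associates with BAK1, had 43.7% and 55.3%, and its widest regions measured 1620 bp (16 °C) and 1630 bp (25 °C). AT5G16590, annotated as LRR1, had 49.6% and 43.8%, and AT3G02880 had 43.1% and 49.6%. The fifth, AT5G58150, differed most between the lists: 5 regions of 150 to 210 bp covered 32.2% at 16 °C, and 5 regions of 140 to 550 bp covered 60.9% at 25 °C. Its body overlaps another annotated gene, so this difference may not be its own alone.

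Among members that overlap no other annotated gene, cover was larger at 25 °C by the widest margin in AT2G01820 (27.7% and 51.4% at 16 °C and 25 °C), AT5G62710 (8.28% and 31.7%), AT4G23740 (8.29% and 29.2%), AT1G35710 (11.9% and 31.6%) and AT2G27060 (15.5% and 34.9%). AT2G27060 had the pattern of SOBIR1, with 5 regions of 60 to 240 bp at 16 °C that all met 1 region of 1420 bp at 25 °C. The widest margins in the other direction were smaller. AT2G36570, annotated as PXC1, a gene correlated with PXY, had 22.9% and 14.4%, AT4G36180 had 39.4% and 33.1%, AT5G16590 and AT1G27190 had the values above, and AT5G39390 had 5.41% and none. In AT4G36180 the widest region measured 1400 bp at 16 °C and 2510 bp at 25 °C although less of the gene was covered, since the 25 °C region ran from the gene body out over its start.

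Members marked in 1 list only had narrow regions. The 18 members marked at 16 °C only had a widest region of 40 to 140 bp, and 16 of them had a single region. The 26 marked at 25 °C only had a widest region of 40 to 260 bp, with 6 above 150 bp. Where regions had to be wider than 150 bp, the numbers were 2 and 22, and they were mostly other genes. Of the 22, 6 were among the 26 and 16 had a narrower region at 16 °C, and neither of the 2 was among the 18. Both counts thus rest on narrow regions. Over all members there were 301 regions at 16 °C and 370 at 25 °C, with median widths of 130 and 140 bp. Of regions up to 100 bp wide, 32.1% at 16 °C and 11.7% at 25 °C overlapped a region of the other list, whereas of those over 300 bp 93.0% and 96.2% did.

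Marked shares were set side by side within classes of gene length. Among genes of 3000 to 4000 bp, 76.5% of 68 members were marked at 16 °C and 77.9% at 25 °C, close to the 78.5% and 80.7% of other genes of that length. Among genes of 4000 bp or more, 62.7% of 75 members were marked in each list (51.4 to 72.7%), below the 87.1% and 89.3% of other genes and the 90.5% and 95.5% of 222 other kinase genes. Among the 32 members of 2000 to 3000 bp, 56.3% were marked at 16 °C (39.3 to 71.8%) and 81.3% at 25 °C (64.7 to 91.1%), against 69.9% and 73.5% of other genes of that length. In this class 9 members were marked in the 25 °C list alone and 1 in the 16 °C list alone, beside 688 and 420 of 7398 other genes. Over other genes the marked share was higher in each longer class, and in this family the longest members had a lower share than those of 3000 to 4000 bp.

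**Figure D3:**
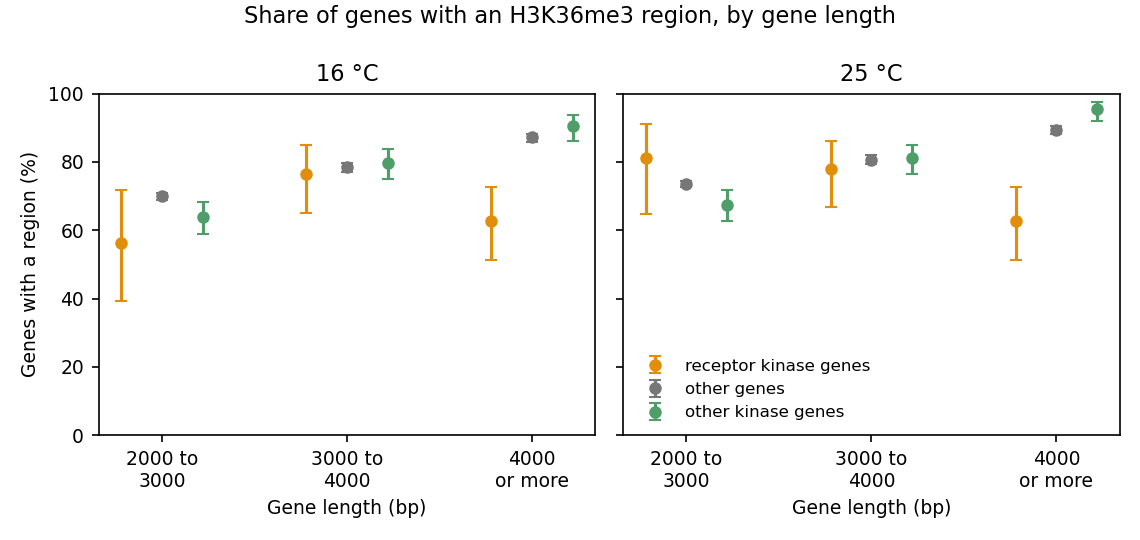
Share of genes with an H3K36me3 region (y axis, percent) by gene length in bp (x axis) at 16 °C and 25 °C, for the receptor kinase genes, other protein-coding genes and other kinase genes, with Wilson 95% intervals as bars. At 4000 bp or more the receptor kinase genes stand at 62.7% in both panels, below the other groups.

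Many of the long members lie in clusters along the chromosome, 37 of the 75 of 4000 bp or more. Where the next member on the chromosome lay within 20000 bp, members were put in 1 cluster, which gave 14 clusters with 49 members. Only distance counted, and likeness of sequence was not asked for. In clusters 26 members were marked at 16 °C (53.1%, 39.4 to 66.3%) and 22 at 25 °C (44.9%, 31.9 to 58.7%). Outside clusters 92 of 129 were marked at 16 °C (71.3%, 63.0 to 78.4%) and 104 at 25 °C (80.6%, 73.0 to 86.5%). The median cover was 1.04% and 0% in clusters, against 5.53% and 14.5% outside. Cover was larger at 25 °C in 17 clustered members and smaller in 16, while outside clusters it was larger in 87 and smaller in 24. At 4000 bp or more, 71.1% of the 38 members outside clusters were marked at 16 °C and 76.3% at 25 °C, against 54.1% and 48.6% of the 37 in clusters.

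The 5 clusters of 4 or more members differed among themselves. The largest, chr1:19206615-19288385, holds 10 members from AT1G51790 to AT1G51910 with IOS1 among them. Of these, 3 were marked at 16 °C (AT1G51790, AT1G51890 and AT1G51910) and 4 at 25 °C (IOS1, AT1G51805, AT1G51860 and AT1G51890), and none had more than 1.68% or 3.01% cover. AT1G51810, AT1G51820, AT1G51830 and AT1G51850 had no region. The 5 members from MEE39 (AT3G46330) to AT3G46420 at chr3:17020718-17086534, with AT3G46340, AT3G46370 and AT3G46400 between, had no region in either list.

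By contrast all 4 members at chr1:20987128-21014095 were marked in both lists. AT1G56140 had 16.1% and 17.9% cover and AT1G56145 had 7.62% and 14.4%, whereas AT1G56130 had 7.34% and 2.07% and AT1G56120 had 1.24% and 0.05%. At chr5:24031346-24051112 AT5G59650 had 7.40% and 9.13%, AT5G59670 and AT5G59680 had up to 3.04%, and AT5G59660 had none. At chr2:12437718-12465050 AT2G28990 had 1.18% and 0.98%, AT2G29000 had 3.98% at 16 °C only, and AT2G28960 and AT2G28970 had none.

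Reads from near-identical copies may not be placed with certainty. The share of 50-base windows of a gene that occur unchanged more than once in the nuclear genome was therefore computed. Windows that differ from another copy by even a single base were not counted, so the share can understate what near-identical copies have in common. It was over 5% in 6 of the 178 members, with a maximum of 12.7% in MEE39, and in 6.76% of all genes. The 6 were AT1G51830, AT2G14440, AT2G14510, AT2G19210, MEE39 and AT5G65240, of which only AT5G65240 had a region. The mean share was 1.04% in clusters and 0.23% outside. Without these 6 genes, 117 and 125 of 172 members were marked.

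Along the gene, regions sat in the 5′ part, with a maximum farther in than in other genes. In members of 2000 bp or more, each body was cut into 10 equal parts, and mean cover was 11.01% and 12.0% in part 1, 20.6% and 25.96% in part 3, 17.8% and 26.3% in part 4 and 1.33% and 2.91% in part 10. In other genes of 2000 bp or more the maximum lay in part 2, at 41.8% and 50.3%, and part 4 had 29.4% and 41.8%. Counted in bp, 4 windows of 100 bp between 500 and 1000 bp from the start tied as the most often marked at 16 °C (27.5% of members). At 25 °C the top window lay at 600 to 700 bp (34.8%), with no window between 500 and 1000 bp under 32.6%, against a top window of 400 to 500 bp in all genes (37.4% and 42.1%). At the centre of the regions was coding sequence in 65.4% at 16 °C and 71.4% at 25 °C, an intron in 21.3% and 17.3%, and a 5′ untranslated region in 8.97% and 7.03%.

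**Figure D4:**
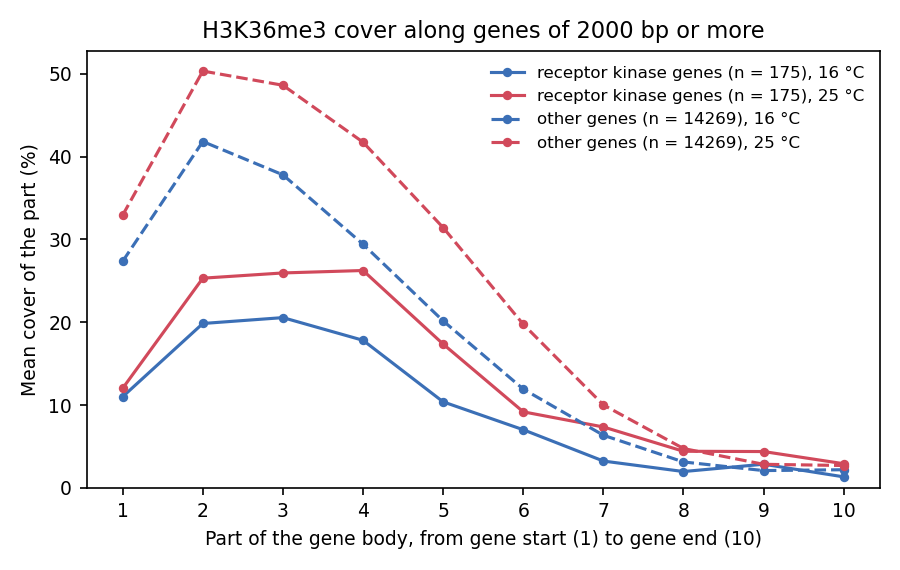
Mean percent of bases inside H3K36me3 regions (y axis) in each of 10 equal parts of the gene body from start to end (x axis), for 175 receptor kinase genes (solid) and 14269 other genes (dashed) of 2000 bp or more at 16 °C (blue) and 25 °C (red). The solid lines have a flat top over parts 2 to 4, while the dashed lines peak in part 2.

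Seen on the protein, where coding sequence was covered the mark lay mainly over the part that encodes the outer domain. The membrane span was taken as the most hydrophobic stretch between the last leucine-rich repeat and the catalytic loop of the kinase, and was found in 109 members whose loop holds an aspartate. In these, 10.045% of coding bases before the span were covered at 16 °C and 14.0% at 25 °C, against 1.63% and 3.74% of those after it. More of the outer part was covered in 52 members in each list, and more of the kinase part in 9 at 16 °C and 14 at 25 °C. The other 48 and 43 had the same value in both parts, as members with no covered coding base do. The hydrophobic stretch lay under 150 residues from the loop in 21 of the 109, among them PXY and MOL1. At such a distance it may lie inside the kinase domain. With the stretch required to end at least 150 residues before the loop, cover was 10.4% and 14.1% before the span and 1.69% and 4.32% after it. With the 38 members added whose loop holds another residue, the values over 147 members were 13.1% and 18.1% before the span and 2.26% and 4.48% after it. Since the outer domain is encoded first, the domain and the position along the gene cannot be told apart here. A region touched the 27 bases of the catalytic loop in 3 of 147 members at 16 °C (PXL1, AT2G29000 and AT5G59650) and in 5 at 25 °C (PXL1, PXL2, PRK5, AT1G34110 and AT4G31250). PXL1 was the only one in both lists, and its widest region lay over the kinase part at both temperatures.

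The catalytic loop itself divides the family. Most kinases hold an aspartate there that takes part in the transfer of phosphate, and in the RD class an arginine stands before it, while many immune receptors have another residue in that place and are called non-RD. Some loops hold no aspartate at all, as in relatives that may lack kinase activity. The loop sequences below show 3 members of the RD class, 2 of the non-RD class and 3 with another residue in place of aspartate. The 2 codons in capitals are the one before the catalytic position and the one at it, and the rest of each 27-base piece is the coding strand around them.
SOBIR1 (RD): atcattcacAGAGACttaaagccagcc
FEI1 (RD): attatacatCGTGATataaagtcgagc
PXL1 (RD): atcattcacAGAGACatcaagtctaat
FLS2 (non-RD): atcgttcatTGTGATctgaagccagct
MOL1 (non-RD): attcctcatGGAGATgtgaagtcgtct
PRK1 (histidine in place of aspartate): gctccacatGGTCACctcaaatcctcc
GHR1 (asparagine in place of aspartate): gttccacacGGTAACctcaaggcaaca
AT5G16590 (asparagine in place of aspartate): acatctcatGGCAACattaaatcatct

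The RD class was the largest, with 92 members, and had the lowest shares of marked genes, with intervals that overlap those of the other classes. Of these, 54 were marked at 16 °C (58.7%, 48.5 to 68.2%) and 58 at 25 °C (63.0%, 52.8 to 72.2%), and their median cover was 1.23% and 2.75%. Of 17 non-RD members 13 and 12 were marked, with medians of 5.41% and 4.92%. In 2 of the 17, AT2G24230 and AT5G39390, the matched piece lacks the histidine that stands before the other loops, and it may not be a catalytic loop. Without them 11 of 15 were marked in each list, with medians of 4.98% and 4.92%, and 21.0% of bases before the span were covered at 16 °C and 21.1% at 25 °C. Of 38 members with another residue in place of aspartate 27 were marked at 16 °C (71.1%, 55.2 to 83.0%) and 32 at 25 °C (84.2%, 69.6 to 92.6%), with medians of 8.66% and 16.8%. The loop pattern matched nowhere in 31 members, of which 24 were marked in each list.

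Class, length and clustering go together: 64 of the 92 RD members were 4000 bp or longer and 40 lay in clusters. Among members of 3000 to 4000 bp, 17 and 19 of 26 RD members were marked, and 15 of 15 members with another residue were marked in both lists. Outside clusters 34 of 52 RD members were marked at 16 °C and 39 at 25 °C, against 25 and 31 of 36 members with another residue. Their parts in the difference were not tested. In all 3 classes the bases before the membrane span had the larger cover, as the bar chart shows.

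**Figure D5:**
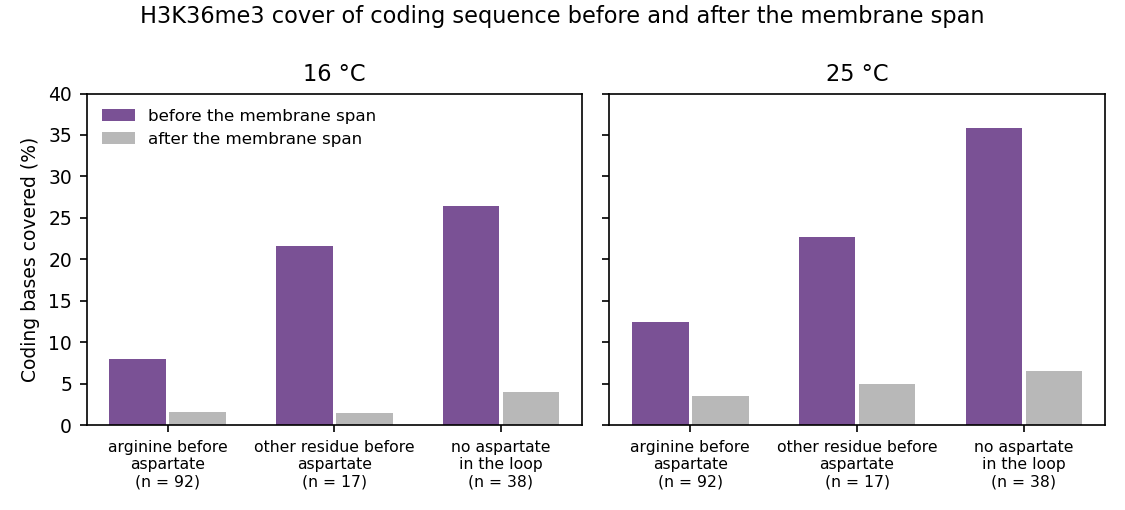
Percent of coding bases inside H3K36me3 regions (y axis) before and after the membrane span, by the residue in the catalytic loop (x axis), at 16 °C and 25 °C, pooled over the members of each class with no replicate error. At 16 °C the values before the span are 7.95% for RD, 21.6% for non-RD and 26.5% for members with another residue in place of aspartate, all above the values after it.

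Gene structure followed the same lines. Of 76 members with more than 6 coding exons, 45 (59.2%, 48.0 to 69.6%) were marked in the 16 °C list and 43 (56.6%, 45.4 to 67.1%) in the other. These shares were near the 56% and 59.5% of all genes. The median cover of the 76 was 1.23% and 1.63%, and 59 of them were 4000 bp or longer. Of 71 members with 2 coding exons 48 and 55 were marked, of 21 members with 3 to 6 exons 17 and 19, and of 10 members with 1 exon 8 and 9. The single-exon members had the highest medians, 17.8% and 35.2%, and include SOBIR1, BIR2, PXL1 and PSY1R. On chromosome 3, where the cluster with no region lies, 45.8% and 54.2% of 24 members were marked (27.9 to 64.9% and 35.1 to 72.1%). On chromosome 4 the shares were 80.0% and 85.0% of 20 (58.4 to 91.9% and 64.0 to 94.8%), with intervals that overlap those of chromosome 3.

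Groups of related function were set beside the members. All 9 receptor genes left out by the rule were marked in both lists (100%, 70.1 to 100%, all genes: 56% and 59.5%). Their median cover was 27.3% at 16 °C and 30.002% at 25 °C. Gene by gene, cover was larger at 25 °C in 4 of them and smaller in 5 (all genes: 47.4% and 17.2%). CLV1 and ER, which differed most between the lists, had 2.76% and 13.8% for CLV1 and 27.3% and 21.7% for ER. BRI1 and BAM1, with the highest mean cover, had 46.9% and 45.7% for BRI1 and 39.0% and 40.3% for BAM1. Of 1203 other kinase genes, 65.7% and 69.4% were marked, close to the members, but their median cover was 8.53% and 14.96%. Of 118 genes for NBS-LRR proteins, the intracellular immune receptors, 69.5% were marked in each list, with medians of 3.54% and 4.40% that are nearest to those of the members.

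Of 17 receptors and other leucine-rich repeat proteins under other product names, 16 were marked at 16 °C (94.1%, 73.0 to 98.95%) and 17 at 25 °C (100%, 81.6 to 100%). The members stood at 66.3% and 70.8%, and all genes at 56% and 59.5%. TMK1, a receptor kinase in auxin signalling, had 29.6% and 38.0% cover, and SERK2, a co-receptor, had 26.02% and 38.2%. CLV2, a receptor protein without a kinase that acts in the meristem, had 14.3% and 34.8%, and SERK4, another co-receptor, had 10.5% and 30.1%. Of 25 genes for signalling partners of these receptors, 22 were marked in each list (all genes: 56% and 59.5%), with medians of 23.3% and 31.4%. AGB1, a G protein subunit, had 45.6% and 51.7%, and MKK4, a MAP kinase kinase, had 51.1% and 44.2%. BIK1, the cytoplasmic kinase below FLS2, had 15.9% and 46.5%, and LLG1, a membrane-anchored partner of receptors, was unmarked at 16 °C and covered over 52.0% at 25 °C. FLS2 and its partner BIK1 thus stood far apart in cover in the same lists.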

How the data were processed

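The authors mapped 50 bp single reads to TAIR10 with Bowtie (Bowtie2 in the submitters' processing notes, version not given in the sources used here) and called regions with the Dpeak function of DANPOS2 at default settings except a read extension of 150 bp. The sources used here do not say if the H3 samples were a background for the calls. The deposited lists, 1 per temperature over pooled replicates, give the position of each region, its height and total signal (normalised coverage, never negative), and a −log10 p-value of the height. No region in the deposited lists had a −log10 p-value under 10.05, and positions fall on steps of 10 bp.

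Genes came from RefSeq's annotation of TAIR10.1, which shares its nuclear coordinates with TAIR10 (organelle regions were left out). A gene was marked by an overlap of 1 bp. Shares have Wilson 95% intervals, and no test was run because no replicate values exist in the lists. The overlap functions were tested on simulated data. Alternatives changed the regions, the overlap, the part of the gene and the genes counted. Genes named were those in 3 role lists (by locus number where RefSeq gives no name), the 5 with the highest mean cover, the 5 largest differences in each direction among members that overlap no other gene, holders of the 3 widest regions in each list, and members of clusters of 4 or more. Of the other lists, the 2 genes with the highest mean cover and the 2 with the largest change were named, with BAM2, STM and WUS besides. The members and lists were chosen with earlier results of these data known. Loops without aspartate were set apart as a class, repeated 50-base windows were counted, the span was placed a second time, and a histidine was required before the loop, after the data had been seen. A leucine-rich repeat was LxxLxLxxN (I, V, F or M also in place of L), and the span the 19 residues of highest hydropathy. Work was done in Python 3.11.15 with numpy 2.4.6, pandas 2.3.3, scipy 1.17.1 and matplotlib 3.10.9.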

Additional observations from a re-analysis of the deposited data

How the results depend on the processing

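No paired analysis was possible because no values per replicate are in the lists. The counts and medians of the members were recomputed under 11 alternatives, and 49 of 70 values stayed within 1.5 times of the reported count or inside the interval of the reported median. Using only regions wider than 150 bp left 59 members marked at 16 °C and 79 at 25 °C, 2 marked at 16 °C only, 67 with larger and 14 with smaller cover at 25 °C, and medians of 0% at both temperatures. With only regions of a −log10 p at or above the median of both lists, 69 were marked at 16 °C, 5 at 16 °C only and 18 had smaller cover at 25 °C, with medians of 0%. In the first 1000 bp alone 75 were marked at 16 °C and 68 had larger cover at 25 °C, with medians of 0% and 0.4%. With regions of 100 bp or wider 9 were marked at 16 °C only, 26 had smaller cover, and the 16 °C median was 0.88%. Among the 130 members that overlap no other gene, 17 were marked at 25 °C only and 69 had larger cover, from fewer genes. Larger cover at 25 °C outnumbered smaller cover under all of these. Equal numbers of regions, an overlap of 50 bp, the centre of the region, the removal of genes with repeated windows, a membrane span farther from the loop and a histidine before the loop (the last 3 chosen after seeing the data) moved no value that far.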
